A study of Mus musculus with 2 samples.

Results

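Reads that lie in a gene but match none of its annotated splice junctions were counted in gastrocnemius, the large calf muscle of the mouse hind limb. The annotation tool TALON puts many such reads in a class called Genomic, and nearly all reads of that class are in models with a single exon. Other single-exon reads are placed among incomplete splice matches, which fit part of an annotated transcript. Only Genomic reads were used to choose the genes, and they are not all of the unspliced reads. The genes described here are the 721 that had 5 or more Genomic reads in each of 2 long-read RNA libraries, out of 14675 annotated genes with reads in either library and 7452 with at least 1 Genomic read. A minimum of 5 reads of any class in both libraries was met by 7881 genes, and the 721 made up 9.15% of them. The genes were thus chosen by their Genomic reads, so their numbers of Genomic reads and their Genomic shares are descriptions, whereas the position of the models was not used to choose them.

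Both libraries came from total RNA (2 µg) of male B6CASTF1/J mice, which are F1 hybrids between strain C57BL/6J and strain CAST/EiJ, at an age of 2 months. They form a single group with no treatment and no control, so conditions were not compared and no p-value was computed. The labels number the males differently but give both the same donor identifier, and the spread between the libraries may therefore be technical. Replicate 1 held 1132759 endogenous reads and replicate 2 held 1449423, after ERCC spike-in reads were set aside. Genomic reads numbered 26006 (2.30%, Wilson 95% interval 2.27 to 2.32%) and 43140 (2.98%, 2.95 to 3.00%). Markers of skeletal muscle summed to 292852 and 273443 reads per 1000000 endogenous reads (CPM), against 554 and 613 for fibroblast, 166 and 104 for erythroid and under 100 in both libraries for the 6 other cell types tested. Of those markers, 1 macrophage, 2 adipocyte and 1 satellite cell gene had 0 reads in both libraries.

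A messenger RNA is cleaved and given its poly(A) tail downstream of a hexamer, most often AATAAA or ATTAAA, and the last exon of a gene commonly holds the whole 3′ untranslated region (UTR). A long read copied from the poly(A) tail that stops inside the last exon carries no junction at all, and neither does a read from an unspliced precursor, from inside an intron or from DNA. These sources cannot be told apart from the counts. TALON also has a class for incomplete splice matches, which are reads that fit part of an annotated transcript.

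Most Genomic reads of the 721 genes were assigned to models whose 3′ end was an annotated transcript end, so the sequences at those ends are shown first. Each line gives the last 30 bases of the annotated transcript up to the end of the model with the most reads of its gene, for the 8 leading genes with such a model, in GENCODE M21 transcript sequence (build mm10) and 5′ to 3′. Capitals mark AATAAA or ATTAAA where a script found either on the transcribed strand.
Apobec2: atagcaacatcAATAAAggaaataagtggt
Pvalb: ctgtgataaaatacctgaaaagagaaactt
Gabarapl1: cttaccttaaaagtctacctggactcagaa
Ndrg2: aaactatagaggaaactgaacagcattgtt
Tcap: tagcactgcAATAAAtgctcagccatgttc
Ybx3: caaaAATAAAatttttaccttcaaaggaaa
Mrpl30: ttctcATTAAAgtgtatgttcatccagtca
Plec: gcccctcAATAAAagcaattccaaccttca

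These windows lie at chr17:48419231-48419260 (minus strand) for Apobec2, chr15:78191114-78191143 (minus) for Pvalb, chr6:129542317-129542346 (plus) for Gabarapl1 and chr14:51905271-51905300 (minus) for Ndrg2. The windows of Tcap, Ybx3, Mrpl30 and Plec lie at chr11:98384924-98384953 (plus), chr6:131364855-131364884 (minus), chr1:37898309-37898338 (plus) and chr15:76170974-76171003 (minus). The hexamer was followed by 13 bases in Apobec2, 15 in Tcap, 17 in Plec, 19 in Mrpl30 and 20 in Ybx3, and the windows of Pvalb, Gabarapl1 and Ndrg2 held neither form. Over all models of the 721 genes that ended exactly on an annotated transcript end, AATAAA or ATTAAA stood within the last 40 bases in 80.2% of 658 models in replicate 1 and 80.0% of 635 in replicate 2. Of all 40-base windows of the same genes' annotated exons, 3.04% held either hexamer. These models were selected for ending on an annotated end. Their hexamers therefore describe the annotated transcript ends and not the ends of the reads. Where a model ended elsewhere inside an exon, the hexamers were present in 35.4% of 161 and 41.3% of 167 models.

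Another set of models ended inside an exon and was followed by a run of A in the transcript itself. Of the models that ended inside an exon with 20 more annotated bases after them, 14.8% of 176 in replicate 1 and 14.4% of 180 in replicate 2 were followed by at least 12 A in those bases. They held 6.91% and 8.72% of the reads of such models, and 1.10% of all 20-base windows in the same exons had as many A. The following line gives, as an example, the 20 bases after such a model end, with A in capitals.
Pyroxd1: gttggAAAgAAAtAAAgAAA

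This stretch lies at chr6:142362122-142362141 (plus) in Pyroxd1 and holds 12 A. The model before it held 30 reads in replicate 2. Models with more reads also ended inside an exon, and the following 2 of them had fewer A after the end.
Polr2l: tccAtgtccAtgtctgtgct
Myom2: ctttgAgcAtggtAcgtgct

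These stretches (chr7:141473087-141473106 minus and chr8:15133349-15133368 plus) held 2 and 3 A, after models with 225 and 135 reads in replicate 2. A match or its absence describes these letters only.

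The 721 genes held 15224 Genomic reads in replicate 1 and 22485 in replicate 2, which was 55.3% ± 4.54 (SD, n = 2) of the Genomic reads of a library. Of these reads, 98.9% and 99.3% were in single-exon models. The 10 genes with the most took 16.1% and 21.9%, and the 20 leading genes 26.4% and 30.7%. Apobec2, a muscle member of the cytidine deaminase family, led with 501 Genomic reads of 836 in replicate 1 and 1083 of 1419 in replicate 2. Its Genomic share was 59.9% (Wilson 95% interval 56.6 to 63.2%) and 76.3% (74.0 to 78.5%), and these intervals did not overlap. Intervals here cover counting error only, since the reads carry no molecular identifiers.

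Pvalb, the calcium buffer parvalbumin of fast fibres, had 209 Genomic reads of 2574 and 712 of 2093, or 8.12% and 34.0%. Its reads of annotated transcripts went the other way, from 2166 in replicate 1 to 1226 in replicate 2. Gabarapl1, an autophagosome protein of the Atg8 family, had 162 of 202 reads (80.2%) and 556 of 626 (88.8%) in the class. All 3 genes had a higher Genomic share in replicate 2, with intervals that did not overlap.

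Other leading genes differed less between the libraries. Ybx3, a cold-shock domain RNA-binding protein, had 296 of 3071 (9.64%) and 371 of 4121 (9.00%) Genomic reads. Zfp106, a zinc finger RNA-binding protein, had 200 of 361 (55.4%) and 326 of 579 (56.3%). In both genes the intervals of the 2 libraries overlapped, although the shares of the genes were far apart from each other. Plec, which encodes the cytolinker plectin, had 194 of 222 (87.4%) and 340 of 425 (80.0%), also with overlapping intervals. Plec has a last exon of 7410 nt in its main annotated transcript. Prr33 and Ndrg2, which also rank among the first 10 by Genomic reads, had shares whose intervals were apart.

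**Figure D1:**
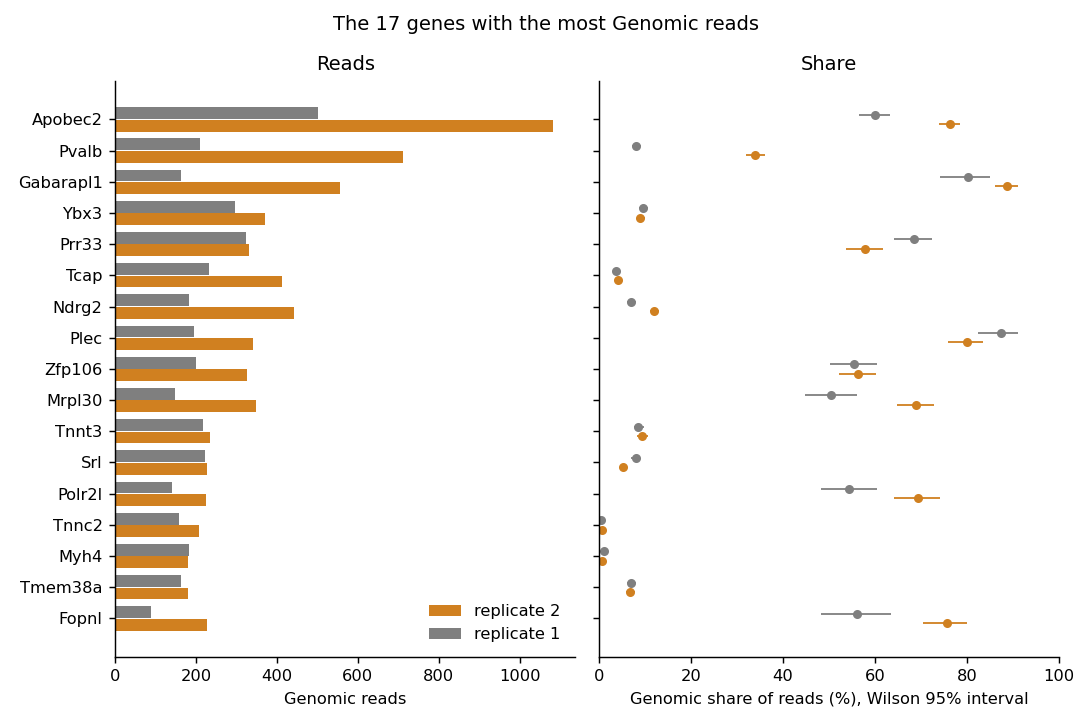
Genomic reads (left, number of reads) and Genomic share of all reads of the gene (right, percent, bars are Wilson 95% intervals) of the 17 genes with the most Genomic reads, for replicate 1 in grey and replicate 2 in orange. Shares range from under 1% in Tnnc2 to over 80% in Gabarapl1, and Pvalb shows the widest gap between the libraries among these 17.

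Among the other leading genes, the mitochondrial proteins Mrpl30 (a subunit of the mitochondrial ribosome) and Slc25a5 (an ADP/ATP carrier) had 50.5% and 68.9%, and 52.4% and 68.5%, of their reads in the class. Ndrg2 had 6.92% and 12.1%. Polr2l, a small subunit shared by the nuclear RNA polymerases, had 54.4% and 69.4%. In each of these 4 genes the share was higher in replicate 2 beyond the counting intervals.

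Over the 721 genes, the median Genomic share was 24.6% in replicate 1 and 21.6% in replicate 2, with quartiles of 8.55 and 54.5% and of 8.24 and 58.7%. The mean of these medians, 23.1%, was 8.61% in the genes with 50 or more reads in both libraries and 36.6% when only annotated and Genomic reads were counted. Over all 7881 genes with 5 reads in each library the median was 0% in both. More than 50% of the reads were Genomic in 196 genes in replicate 1 and 205 in replicate 2, and in 173 genes in both. In 42 genes every read in both libraries was Genomic, 17 of them protein-coding. At the other end, 203 and 217 genes had a share under 10%, and 8 genes were under 1% in both libraries.

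The share of a gene depends on how many other reads it had, which a minimum of 5 Genomic reads does not limit. The 173 genes above 50% in both libraries had a median of 14 and 19 reads in all, and the 179 genes under 10% in both had 254 and 338. The lowest shares were those of Atp2a1, the fast-fibre calcium pump of the sarcoplasmic reticulum, with 48 of 163251 and 9 of 203279 reads. Tpm1, a tropomyosin, had 56 of 28529 (0.196%) and 43 of 24663 (0.174%), and the glycolytic enzyme Aldoa 60 of 20066 and 72 of 17141. Fth1, the ferritin heavy chain, and Slc16a3, a lactate transporter, had 12 and 13, and 7 and 5, Genomic reads.

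**Figure D2:**
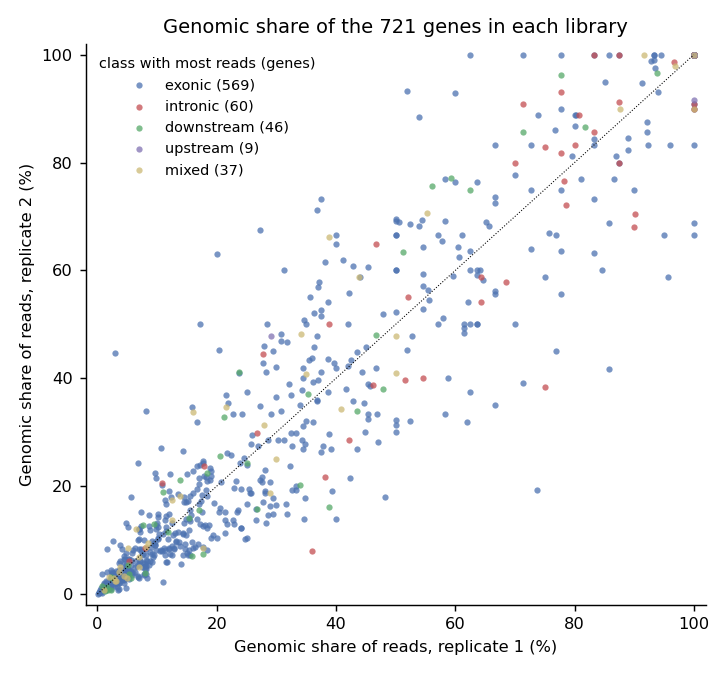
Genomic share of reads (percent) in replicate 1 (x axis) and replicate 2 (y axis), 1 point for each of the 721 genes, coloured by the position class that held most of its Genomic reads; the dotted line marks equal shares. Points fill the whole range from near 0 to 100% along the line, and genes led by intronic or upstream models lie mostly in the upper part.

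Across the 721 genes the shares of the 2 libraries had a Spearman correlation of 0.946 and a Pearson correlation of 0.942, given as a description, since both libraries share the tissue, the annotation and the choice of genes. The median SD of a gene's share was 2.93 percentage points, and 459 genes had an SD under 5. The Wilson intervals of the 2 libraries overlapped in 673 genes. They were apart with the higher share in replicate 2 in 29 genes (4.02%) and in replicate 1 in 19 (2.64%). Among all genes with at least 10 summed Genomic reads, those shares were 10.9% and 8%. The chosen genes have Genomic reads in both libraries by definition, so the lower values are read no further.

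By position, exons were the main place of these reads. Each model was set against the annotated exons of its own gene, and a model was called exonic or intronic when at least 90% of its bases lay there. Exonic models held 75.7% ± 3.91 (SD, n = 2) of the Genomic reads of the 721 genes, 72.9% in replicate 1 and 78.5% in replicate 2. Reads inside a single last exon made up 71.1% and 77.5%. Intronic models held 8.72% and 7.01%. Models in neither class were called downstream when at least 10% of their bases, or over 100 bases, lay past the annotated 3′ end. Downstream models held 7.13% and 5.07% of the reads. Upstream models, called by the same limits at the 5′ end, held 0.808% and 0.543%. The means of these 2 classes, 6.10% and 0.675%, were 11.7% and 3.45% when only exons of annotated transcripts with reads were used. The rest, 10.4% and 8.91%, crossed from exon into intron. In Genomic reads of other annotated genes, exonic models held 68.9% and 74.8% and intronic models 12.7% and 9.94%.

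In bases weighted by reads, 57.8% and 62.3% of the models lay in 3′ UTR, 9.16% and 6.79% in coding sequence and 29.7% and 27.8% in no annotated exon. The 3′ end of the model lay within 50 nt of the 3′ end of an annotated transcript for 73.4% ± 2.60 (SD, n = 2) of the reads, and exactly on it for 70.7% and 74.8%. It lay elsewhere in the last exon for 9.71% and 11.1%, in an internal exon for 2.56% and 1.08%, in an intron for 8.97% and 7.59%, and past the gene for 7.23% and 5.05%.

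The coordinates of a model do not give the length of its reads. Both ends of the model lay on annotated exon boundaries for 44.4% and 50.5% of the reads, and 79 and 94 models were shorter than 50 nt while holding 13.4% and 19.2% of the reads. The leading models of Apobec2, Pvalb and Ndrg2 spanned 1, 4 and 13 bases at the annotated end of each gene, with 1082, 652 and 442 reads in replicate 2. Read lengths were not analysed here, and the position class of such a short model describes those few bases only.

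**Figure D3:**
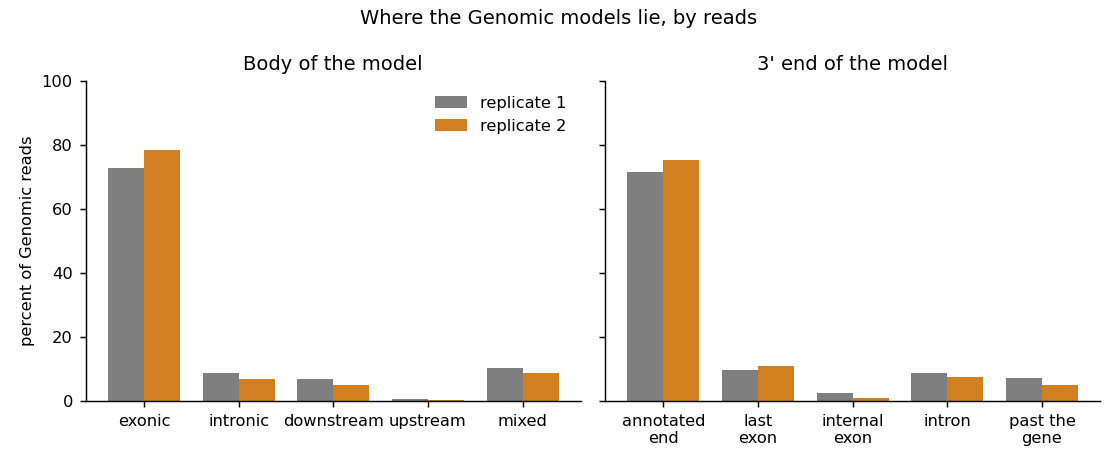
Percent of the Genomic reads of the 721 genes by the position of the body of the model (left) and of its 3′ end (right), with replicate 1 in grey and replicate 2 in orange. Exonic bodies hold 72.9 and 78.5%, and annotated transcript ends 71.5 and 75.2%, of the reads in the 2 libraries.

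Counted by gene, most Genomic reads were exonic in 569 genes, intronic in 60, downstream in 46, upstream in 9 and mixed in 37. The 569 genes had a median share of 20.0% and a median of 46 and 73 reads that were not Genomic. Last exons were longer among the 721 genes than among the 7881 genes, with medians of 1918 and 1118 nt. In genes whose last exon had up to 500 nt, 5.17% of 1916 were among the 721, and the share was 5.77%, 8.65%, 13.6% and 23.2% with last exons to 1000, to 2000, to 4000 and over 4000 nt. The median of the summed reads of all genes was 66.5 in the first bin and 39 in the last. The median Genomic share of the chosen genes did not follow the same order, at 32.5%, 17.5%, 16.3%, 20.5% and 40.8% over these bins.

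**Figure D4:**
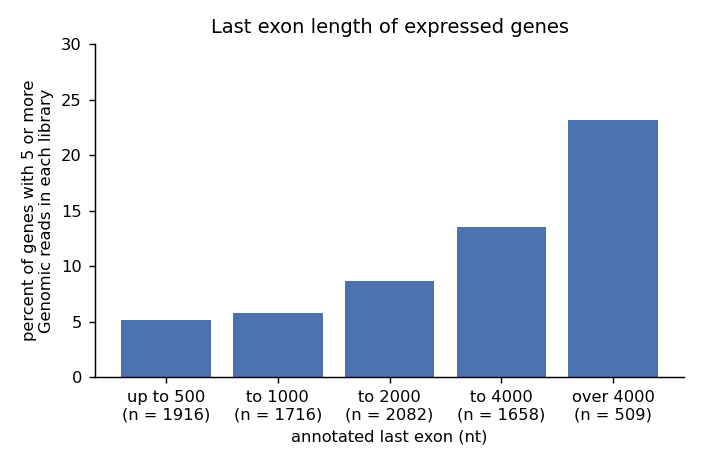
Percent of the 7881 genes that had 5 or more Genomic reads in both libraries (y axis), by the length of the last exon of the main annotated transcript in nt (x axis), with the number of genes in each bin. The bars go from 5.17% to 23.2%.

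Intronic models led in genes with few other reads. The 60 genes had a median share of 84.7%, a median of 1.5 reads that were not Genomic in each library and a median gene span of 81007 nt; 43 were protein-coding. Prr33, annotated as a long intergenic RNA gene, had 323 of 472 (68.4%) and 332 of 574 (57.8%) Genomic reads. Its leading intronic model held 237 reads over 1326 nt in replicate 1 and 332 reads over 2804 nt in replicate 2, and ended inside an intron in both. Pde4d, a cyclic AMP phosphodiesterase, had 50 and 43 intronic reads, and the receptor gene Fgfr2 had 32 and 49 reads, all of them Genomic. The scaffold gene Anks1b had 30 and 27 reads, also all Genomic. For these 2 genes no read of an annotated transcript was counted in either library. The annotated span of Fgfr2 is 2960900 nt, and its leading model in replicate 1, with 5 reads, lay wholly in another gene on the same strand, so reads counted for Fgfr2 may belong to other genes.

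Downstream models led in 46 genes. Fopnl, a centrosomal protein gene, had 88 of 157 (56.1%) and 226 of 299 (75.6%) Genomic reads, and its models ended 813 nt past the annotated 3′ end in both libraries. Hhatl had 63 and 117 Genomic reads in models ending 728 nt past the annotated end. Of the bases of these Hhatl models, 72.2% in replicate 1 and 30.1% in replicate 2 lay opposite another gene. Gm20659 had 62 and 98 reads, all Genomic, in a model that lay wholly opposite another gene. The sources used here do not state how strand was assigned, so reads of such pairs are uncertain.

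The same gene could have different models in the 2 libraries. Srl, the sarcoplasmic reticulum protein sarcalumenin, had 210 reads in a model that ended 1394 nt past the annotated end in replicate 1 and none in a downstream model in replicate 2, where 227 reads were in a model that ended on the annotated end. Its summed Genomic reads were 221 and 228. Ankrd23, a muscle ankyrin repeat gene, had 117 reads ending 1041 nt past its annotated end in replicate 1 and 158 in an exonic model in replicate 2. That model also lay almost wholly in the same-strand gene Gm42417. The position class thus differed between the libraries in both genes. The Genomic share of Ankrd23 was 5.61% and 5.31%, with overlapping intervals, and that of Srl was 7.96% (7.01 to 9.03%) and 5.24% (4.62 to 5.95%), with intervals apart.

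Over the 721 genes, 83.3% of the Genomic reads of replicate 1 were in models ending within 50 nt of a model end of the same gene in replicate 2, and 85.6% in the other direction. Models with identical coordinates in both libraries numbered 218, in 210 genes, and held 32.5% and 36.9% of the reads. A model with identical coordinates also has a repeated end, so the second count is part of the first. Most of the reads were in models ending on annotated transcript ends, which both libraries share. A repeated end can thus follow from the annotation and is not an independent repeat of read ends.

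Models that spanned the gap between neighbouring annotated exons, as an unspliced RNA would, held 8.41% and 8.10% of the Genomic reads, and 31 genes had such a model in both libraries. Since model coordinates do not give the extent of the reads, whether the reads themselves crossed these gaps was not tested. In some genes such a model was present in a single library, as in Hhatl (0 and 117 reads) and Prr33 (86 and 0). Tcap, the titin cap protein telethonin of the Z disc, led with 232 and 412 reads in a 1143-nt model that runs through the gap between the exons of this 2-exon gene. Its share was 3.61% of 6432 reads and 4.16% of 9901, with overlapping intervals. Tnnt3, fast troponin T, had 217 and 235 reads in gap-spanning models (8.55% and 9.47% of the gene's reads). Its leading model in replicate 1 spanned 4 gaps between annotated exons, and 3041 of its 3640 bases lay in no annotated exon. That model held 6 annotated introns, where each distinct intron of any annotated transcript of the gene was counted.

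Tmem38a, the sarcoplasmic reticulum cation channel TRIC-A, had 160 and 179 reads in a gap-spanning 6011-nt model, identical in both libraries. Myadml2 had 106 and 160 reads in gap-spanning models, which were 87.6% and 89.9% of all its reads. Rabep2 had 29 and 45 such reads and a Genomic share of 96.9% and 97.8%. Of the bases of these Rabep2 models, 44.1% and 38.7% lay opposite another gene, the highly read Atp2a1, so the strand of these reads is uncertain. In Tcap, Tnnt3 and Tmem38a the Genomic reads were thus a small part of a highly read gene, and in Myadml2 and Rabep2 nearly all of it. Myh4, the heavy chain of type IIb myosin, had 182 and 180 Genomic reads of 16494 and 25951, of which 182 and 179 were in a 1058-nt model at the end of the gene with 799 intronic bases.

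Protein-coding genes made up 679 of the 721 (94.2%, against 95.9% of all genes with 5 reads in each library), with 19 antisense and 13 long intergenic RNA genes among the rest. The 42 genes that were not protein-coding had a median share of 100%, and the protein-coding genes 21.1%. All 9 genes led by upstream models were not protein-coding, and Gm13008, with 20 and 16 reads, had the most. Of the 1875 bases of the Gm13008 model, 198 lay past the 5′ end and 1205 in introns. The model lay wholly opposite another gene, so the strand of these reads is uncertain. Platr31 and Gm15856, both antisense genes, had 30 and 20, and 20 and 30, reads, all Genomic. Reads of near-identical copies and of overlapping genes may have been split between genes by the counting.

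The gene lists of muscle function are read beside the 9.15% of all genes, whose median was 23 and 33 reads, and each list's own median number of reads is given with it. Of 40 sarcomere genes measured, 13 were among the 721, among them Tcap, Tnnt3, Tnnc2 (fast troponin C) and Myh4, with a median share of 3.88%; the list's genes had a median of 634 and 1875.5 reads. Of 31 genes of calcium handling and excitation, 15 were included (median share 10.8%, median 205 and 195 reads), among them Pvalb and Srl. Of 23 glycolysis and glycogen genes, 9 were included (3.53%, 573 and 836 reads), among them Aldoa and Phkb, a subunit of phosphorylase kinase.

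Splicing regulators had 7 of 37 genes included (median share 11.6%) although their median was 30 and 36 reads. They were led by Hnrnpa2b1, Ddx5, Luc7l2 and Rsrp1. The leading models of Hnrnpa2b1 (51 and 48 reads), Ddx5 and Rsrp1 (7 and 9 reads) were exonic. The leading model of Luc7l2 in replicate 1 (10 reads) was mixed, with 784 intronic bases and an end inside an intron. In replicate 2 the leading Luc7l2 model was exonic (7 reads), and a mixed model with 781 intronic bases had 4 reads. The models of these 4 genes with the most reads held 0 whole annotated introns. The leading model of Ddx5 in replicate 2 (56 reads) was 1 nt long and could not hold any. The clock list had 4 of 14 (14.2%, 40 and 66 reads), among them Rora, Nr1d2 and Cry2. Mitochondrial metabolism had 6 of 34 (3.04%, 611 and 1194 reads), and autophagy and atrophy 3 of 21, Gabarapl1, Fbxo32 and Ulk1 (24.7%, 130 and 132 reads).

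Other lists lay near the share of all genes or below it. Near it were translation factors, with 2 of 18 (11.1%; Eif4g2 and Eif4g3; median 169 and 254 reads), and stress genes, with 2 of 19 (10.5%; Hspa5 and Txnip; 20 and 31 reads). Endothelial genes had 1 of 10 (Cd36; 34 and 49.5 reads) and genes of other cell types 1 of 10 (26 and 30.5 reads). Below it were cytosolic ribosomal proteins, with 1 of 35 (2.86%; Rpl4; 169 and 194 reads), and matrix genes, with 1 of 20 (Sparc; 37 and 40 reads). None of the 12 mitochondrially encoded genes and none of the 8 nuclear and host-gene long noncoding RNAs measured was included, the former with a median of 132.5 reads in each library and the latter with 22.5 and 27.

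The class itself depended on the library in many genes. In annotated genes, single-exon reads that match no annotated transcript were counted in the Genomic class and among incomplete splice matches. Together they were 3.50% and 4.04% of endogenous reads. Single-exon reads that TALON placed outside annotated genes were not included. Genomic models held 63.9% and 70.9% of these. Of 607 genes with at least 10 such reads in each library, at least 90% were Genomic in both libraries in 308, and at least 90% were incomplete splice matches in both in 126. In 115 genes (18.9%) the reads were at least 90% Genomic in one library and at least 90% incomplete splice matches in the other, 55 of them Genomic in replicate 1 and 60 in replicate 2. None of the 115 is among the 721, since the choice required Genomic reads in both libraries.

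Slc25a4, the muscle ADP/ATP carrier, had 1559 single-exon incomplete splice matches and 1 single-exon Genomic read in replicate 1, and 0 and 2340 in replicate 2. Des, the intermediate filament protein desmin, had 248 incomplete splice matches in replicate 1 and 1126 Genomic reads in replicate 2, and Mb, myoglobin, 280 and 604. Cox6a2, a subunit of cytochrome c oxidase, went the other way, with 204 Genomic reads in replicate 1 and 683 incomplete splice matches in replicate 2. The 115 genes held 6.76% and 16.8% of all Genomic reads in the 2 libraries. In the 721 genes, by contrast, single-exon incomplete splice matches numbered 301 and 465 beside 15064 and 22334 single-exon Genomic reads, which the choice of genes favours.

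**Figure D5:**
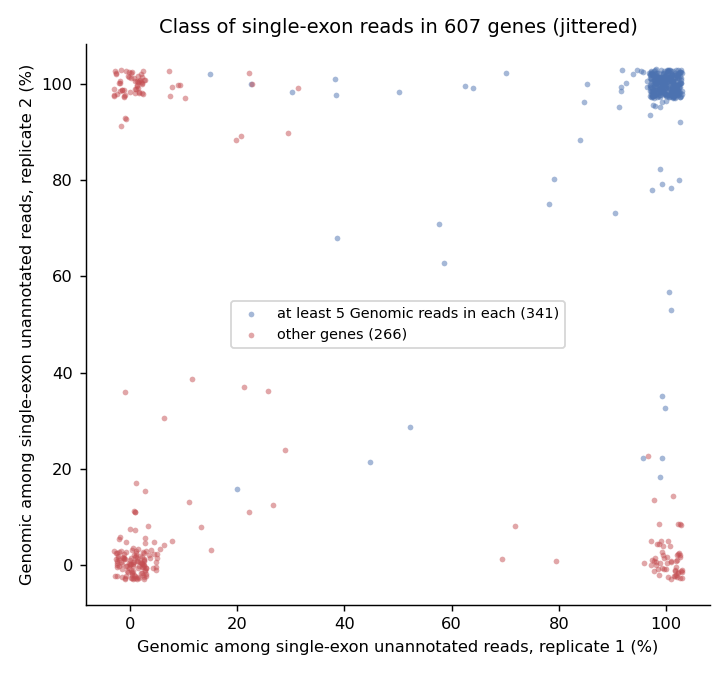
Percent of single-exon reads matching no annotated transcript that were Genomic, the rest being incomplete splice matches, in replicate 1 (x axis) and replicate 2 (y axis), for 607 genes with at least 10 such reads in each library; points are moved by up to 3 percentage points at random to separate them. Blue points are 341 of the 721 genes and red points the other 266, and the upper left and lower right corners hold the 115 genes with opposite classes.

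Between the libraries, 70 of the 721 genes (9.71%) had over 2-fold more Genomic CPM in replicate 2 and 54 (7.49%) in replicate 1. With median-ratio size factors in place of endogenous reads the numbers were 56 and 63. Among all genes with at least 10 summed Genomic reads, 25.2% were over 2-fold higher in replicate 2 and 15.2% in replicate 1. For the total CPM of the gene, 546 of the 721 reached a minimum of 50 summed reads. Of them 22 (4.03%) exceeded 2-fold in favour of replicate 2 and 2 (0.366%) in favour of replicate 1, against 3.91% and 0.559% of all genes with that minimum. Each is 1 library against 1 library, with no replicate check.

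The widest gaps were those of Cltb, a clathrin light chain, with 7 Genomic reads of 238 in replicate 1 and 115 of 257 in replicate 2, while its total CPM was 0.844 times that of replicate 1. Cltb also had 50 single-exon incomplete splice matches in replicate 1 and 0 in replicate 2, so its single-exon reads of both classes were less far apart than its Genomic reads. Rpl4, a ribosomal protein, had 8 of 511 and 54 of 644, and Cycs, cytochrome c, 5 of 672 and 33 of 880, with 11 and 0 single-exon incomplete splice matches beside them. Laptm4a had 11 of 64 and 77 of 154, and Ddx6, an RNA helicase, 14 of 15 and 96 of 97. The total CPM of Rpl4 and Cycs was 0.985 and 1.02 times that of replicate 1, whereas that of Ddx6 was 5.05 times, beside 5.36 times for its Genomic CPM. Higher in replicate 1 were Gm13091 (38 and 6), Atp2a1 (48 and 9), Gm26551 (25 and 5), Rab10 (19 and 6) and Phkb (15 and 5). In replicate 2 Atp2a1 had 32 single-exon incomplete splice matches (3 in replicate 1) and Phkb 15 (0 in replicate 1), so the Genomic reads of these 2 genes were lower there while the other class was higher.

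At the minimum of 5, 122 genes had exactly 5 Genomic reads in the lower library, and 197 genes had 4. Bach1, with 5 of 5 reads in each library, and Eps15, with 5 of 62 and 5 of 98, were just inside. Kif1c, with 34 and 4 Genomic reads, and Idh2, with 4 and 20, were just outside.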

How the data were processed

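The authors deposited raw counts of reads per transcript model for each library, with the number of exons, the length and the coordinates of each model. Reads on mouse build mm10 were assigned by TALON to annotated transcripts (GENCODE M21) or to other models, in each library separately, per the file headers and notes. What aligner, versions or filters were used is not given in the sources used here. Counts were summed per gene, without the ERCC spike-ins, and scaled to 1000000 endogenous reads. Models were set against GENCODE M21 exons on the same strand. Python 3.11.15, pandas 2.3.3 and statsmodels 0.14.6 were used, and the classification was tested on simulated models. The genes were grouped by the labels into 1 group of 2 libraries, and no test was made.

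The genes, the lists and the rule for named genes were chosen with earlier results of these data known. Named were the 20 genes with the most Genomic reads, the 12 with the highest share among those with at least 50 summed reads, the 5 leading genes of each position class, up to 4 of each list, the 5 most apart in each direction, the 5 on either side of the minimum, the 5 lowest shares and the 10 models with the most reads; some of these are left out for length or are not reported here, and genes that switched class, that spanned gaps or that show A-rich ends were picked after their values were seen. No genome sequence was used here, so bases after a model end come from transcripts and only where an exon continues. Alternatives covered other minimums, denominators, exon sets and windows, leaving out each library, thinning and another scaling.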

Additional observations from a re-analysis of the deposited data

How the results depend on the processing

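The number of genes depended on the minimum: 1241 with 3 and 327 with 10 Genomic reads in each library, holding 63.3% and 44.8% of the Genomic reads. It was 662 with replicate 2 thinned to the depth of replicate 1, 1235 when single-exon incomplete splice matches were added (chosen after seeing the data), and 1037 to 1387 with either library alone. The mean of the median shares, 23.1%, became 36.6% over annotated plus Genomic reads and 8.61% in genes with 50 or more reads in both libraries, and 21.6 to 24.6% with either library alone. The number of genes with a mean share over 50% (205) was 287 over annotated plus Genomic reads and 196 to 205 in either library. Exonic models held 70.8% of the reads with exons of transcripts that had reads and 71.2% without models under 50 nt, an alternative chosen after seeing the data. With the former, downstream and upstream models held 11.7% and 3.45%. Intronic models held 12.1% at a 70% limit, 9.48% with genes weighted equally and 9.27% without models under 50 nt. Reads with an end repeated in replicate 2 were 81.9% within 20 nt and 84.6% within 200 nt. Genes over 2-fold apart numbered 119 with median-ratio size factors (56 higher in replicate 2 and 63 in replicate 1, a log2 shift of -0.09), so the direction with more genes changed. Of 94 apart with at least 20 summed Genomic reads, 64 were higher in replicate 2. The planned count of A in genomic bases after each end was not run, since it needs a genome. In the version from transcripts, reads before at least 10 and 15 A were 18.9% and 4.92% of those ending inside an exon. No paired analysis was possible because there is 1 group. Depth limits the genes: with 5 to 10 reads a share has a wide interval.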
